A study of Mus musculus with 13 samples.

Results

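The mitochondrial carrier family SLC25 was followed at the mRNA level in C2C12 cells, a mouse myoblast line, after siRNA depletion of YBX3, a cold shock domain RNA-binding protein. The family was taken as every row of the count table whose Ensembl ID belongs to a protein-coding mouse gene with a symbol of the form Slc25a and a number. This gave 47 genes of 55642 rows, of which 38 were among the 16848 genes that passed the filter on low counts. Cells of all groups were reverse transfected with siRNA using lipofectamine RNAiMAX and harvested 48 h after transfection. Control KD cells received nontargeting siRNA (siNT) and YBX3 KD cells received siYBX3. The 0 day groups were proliferating myoblasts kept in medium with fetal bovine serum, and the 1 day groups spent the last 24 h in medium with horse serum, which starts muscle differentiation. There were 4 libraries of control KD at 0 day (replicates A to D), 2 of control KD at 1 day (C and D), 4 of YBX3 KD at 0 day (A to D) and 3 of YBX3 KD at 1 day (B to D). The titles name them biological replicates, but all come from 1 cell line, and if they share a culture or day the p-values measure a partly technical spread. Whether the YBX3 siRNAs were pooled or used singly for these libraries is not given in the sources used here.

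The libraries held 33451547 to 71811371 counts each, and the SLC25 genes together took 0.271% to 0.313% of them. *Ybx3* itself stood at 264 to 346 CPM (counts-per-million, scaled to each library's TMM-adjusted total) in the 6 control KD libraries and at 28.7 to 71.5 CPM in the 7 YBX3 KD libraries, a mean of 14.5% of control KD. The 5 markers of the labelled cell type, myoblasts, summed to 434 to 531 CPM in control KD and 450 to 648 CPM in YBX3 KD. In YBX3 KD at 0 day they summed to 573 to 648 CPM, above every control KD library. *Chrna1* made up much of these sums, at 224 to 300.5 CPM in control KD and 244 to 385 CPM in YBX3 KD. *Myod1*, of the same 5, was low, at 0.601 to 1.80 CPM in control KD and 1.15 to 3.32 CPM in YBX3 KD. The 8 markers of early muscle differentiation did not separate the days: they summed to 32.9 to 116 CPM in control KD at 0 day, 77.8 to 87.3 CPM in control KD at 1 day, 60.9 to 95.8 CPM in YBX3 KD at 0 day and 31.5 to 111 CPM in YBX3 KD at 1 day. *Myog*, which encodes myogenin, was at 0.123 to 0.888 CPM in control KD at 0 day and at 0.0522 and 0.427 CPM at 1 day. In YBX3 KD it was at 0.179 to 0.678 CPM at 0 day and at 0.176, 3.46 and 0.537 CPM at 1 day (B to D). YBX3 KD 1 day replicate C was also the highest library in *Acta1* (34.2 CPM, others at most 16.6) and *Ckm* (2.52 CPM, others at most 0.911). *Tnnt2*, at 24.4 to 90.4 CPM, made up much of the sums. The share of counts from the protein-coding genes of mitochondrial DNA was 1.39% and 1.87% in control KD at 1 day, 2.11% to 2.86% in control KD at 0 day and 2.71% to 4.28% in YBX3 KD. The part of these shifts in the results below was not tested. Of 14 markers of leukocytes, endothelium, epithelium, adipocytes and neurons, 10 stayed under 1 CPM everywhere, and the 14 summed to 4.94 to 11.1 CPM in control KD and 4.68 to 9.25 CPM in YBX3 KD. Libraries of replicate D stood apart from the others: the chi-square per degree of freedom between libraries of 1 group was 45.7 to 259 in the 9 pairs with a D library and 18 to 53.3 in the 7 pairs without one. Values without them are given beside the results they move.

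Mitochondrial carriers are small proteins of the inner mitochondrial membrane that pass nucleotides, phosphate, amino acids, carboxylates, cofactors and metal ions between the cytosol and the matrix, usually by exchange of one solute for another. They are encoded in the nucleus, made in the cytosol and inserted through the TIM22 complex. In muscle the ADP/ATP and phosphate carriers supply oxidative phosphorylation, and the aspartate/glutamate carriers form part of the malate-aspartate shuttle for reducing equivalents. A few members lie elsewhere, such as SLC25A17 in peroxisomes and SLC25A46 in the outer mitochondrial membrane.

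The siRNA guides are shown first because the bases at positions 2 to 8 of a guide, its seed (capitals), can pair with other mRNAs. Each guide is written 5′ to 3′ as listed for the study.
YBX3 siRNA 05 guide: uAUAGUUGuagggacgucg
YBX3 siRNA 06 guide: aUAGUAGCcgcgucuguac
YBX3 siRNA 08 guide: aUACUUGCguggguuguuu
All of the 3 guides matched a coding stretch of *Ybx3* over their whole length. Below are stretches of the 3′ untranslated regions (UTRs) of 3 members the results turn on, with the complement of a seed in capitals, read from the mouse transcripts on GRCm39.
*Slc25a36*, siRNA 06 seed, capitals at chr9:96958660-96958666, minus strand: tagagcagtaGCTACTAgaagcaaccc
*Slc25a12*, siRNA 08 seed, capitals at chr2:71105488-71105494, minus strand: cataGCAAGTAcagaccgagg
*Slc25a5*, siRNA 05 seed, capitals at chrX:36062299-36062305, plus strand: ttatcagtggCAACTATttaccagttg
A match to at least 1 of the seeds of the 4 listed YBX3 siRNAs was present in 8 of 37 members with a 3′ UTR and in 20.4% of 12933 genes tested. The seed complement of siRNA 08, GCAAGUA, was in the 3′ UTR of 2 members, *Slc25a12* and *Slc25a33* (the RNA strand was searched, and GCAAGUA is in 6.84% of all 3′ UTRs). Those of siRNA 05 (CAACUAU, 6.72% of 3′ UTRs) and siRNA 06 (GCUACUA, 4.9%) were in 3 and 2 members. The siRNA 07 guide is not printed because its listed strands were not complementary to each other. Its listed guide also matched a coding stretch of *Ybx3*, and its listed sense strand did not. *Slc25a36* also held the seed complement of siRNA 07 (GAUAUGG, 5.96% of 3′ UTRs), and *Slc25a37* held none of the 4. The seed complements of the nontargeting siRNAs listed as 02 (UUGUGUG), 03 (UUUUCUG) and 04 (UUUUCCU) were in 24.9%, 29.5% and 31.8% of 3′ UTRs and in 9, 12 and 12 of 37 members, and that of 01 (UCGACUA, 0.65%) in none. *Slc25a37* held those of 02 and 03, and *Slc25a36* and *Slc25a12* held those of 03 and 04. Members with a match to 03 or to 04 had median log2 differences in YBX3 KD of 0.14 in each case, against -0.027 without one. Over all genes the medians were 0.012 against -0.011 and 0.0091 against -0.0083. For 02 the members' medians were 0.070 with a match and -0.0049 without (0.0073 and -0.0069 over all genes). For YBX3 siRNAs 05, 06, 07 and 08, members with a match (2 or 3 each) had medians of 0.17, 0.25, 0.17 and -0.22. Those without had -0.0049, -0.0079, -0.0089 and 0.050. Over all genes the medians were 0.013, -0.024, 0.0085 and -0.057 with a match, and -0.0046, -0.0015, -0.0042 and 0.0011 without. A match is a description of letters in a window, and its part in any result below was not tested.

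The level of each member, as CPM per kilobase of its reference transcript, spanned a wide range in control KD at 0 day. *Slc25a5*, *Slc25a3* and *Slc25a4* led the family at 350.4 ± 60.2, 207 ± 11.5 and 185 ± 11.9 CPM per kilobase (SD, n = 4). They are an ADP/ATP carrier, the phosphate carrier and a second ADP/ATP carrier, and together they made 60.2% of the family's summed level. Next came *Slc25a11*, the oxoglutarate carrier, at 52.04 ± 3.21 CPM per kilobase, *Slc25a24*, an ATP-Mg/phosphate carrier, at 50.9 ± 3.42 and *Slc25a39*, a glutathione carrier, at 50.7 ± 2.51. The lowest tested member, *Slc25a43*, was at 0.675 ± 0.12 CPM per kilobase, so that the tested members spanned 519-fold. Along the ordered list of the 38 tested members, 30 of 37 neighboring pairs overlapped between libraries. *Slc25a5* lay clear of *Slc25a3*, whereas *Slc25a3* and *Slc25a4* overlapped, and a clear step followed *Slc25a4*. With the longest transcript of each gene as its length, *Slc25a3* stood at 143 CPM per kilobase and changed places with *Slc25a4*. *Slc25a11*, whose longest transcript has 2513 bases against 1724 for the reference, then fell below *Slc25a24* and *Slc25a39*.

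**Figure D1:**
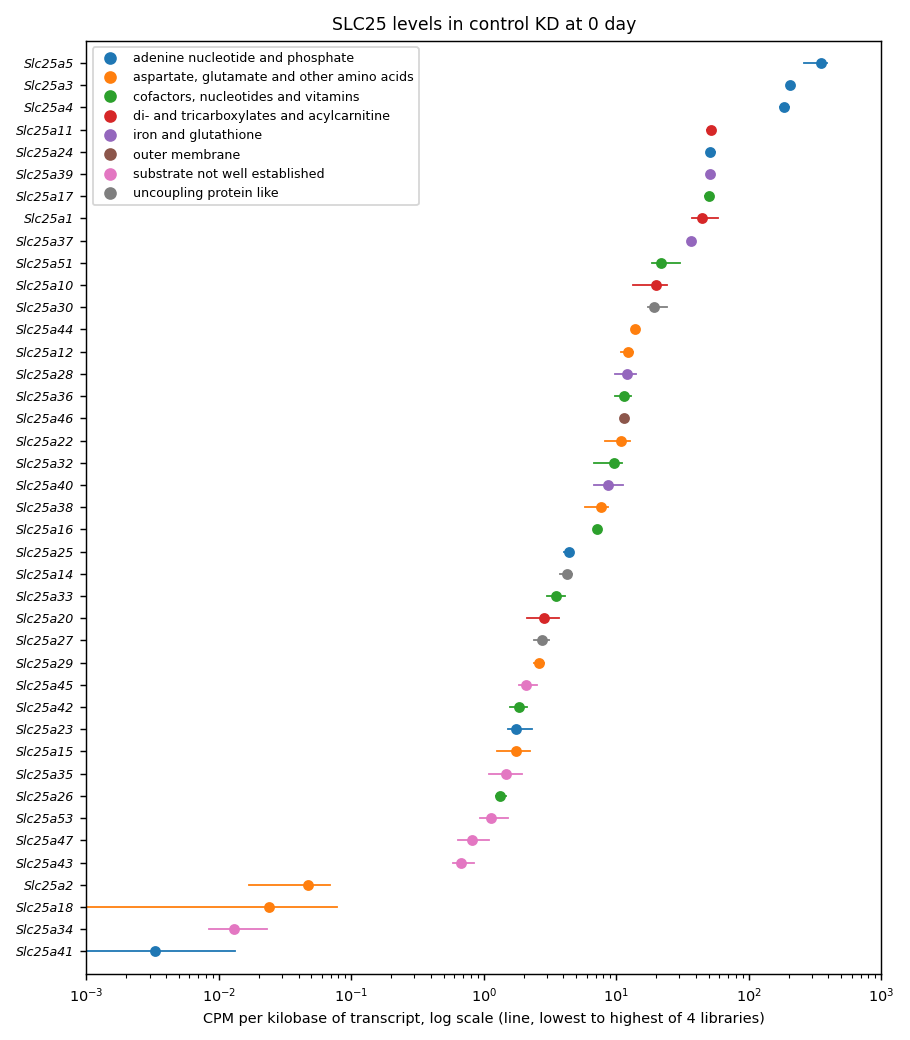
Levels of SLC25 genes above 0 in control KD at 0 day, in CPM per kilobase of transcript on a log axis, where points are means of 4 libraries and lines run from the lowest to the highest library. Colors mark the role group, which is the transported solute, outer membrane, uncoupling protein-like or substrate not well established. *Slc25a5* is highest at 350.4 and 4 members lie under 0.05 CPM per kilobase, of which *Slc25a18* and *Slc25a41* have lines that reach 0 and run off the axis.

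Close relatives within the family differed in level. Of the aspartate/glutamate carriers, *Slc25a12* (aralar) stood at 12.3 ± 1.1 CPM per kilobase in control KD at 0 day, while *Slc25a13* (citrin) had 1 count in 611481367 counts over the 13 libraries, a count whose limits are given with the members that failed the filter. The ADP/ATP carrier *Slc25a31*, known from germ cells, had 4 counts in all. Of the mitoferrins, which import iron, *Slc25a37* was at 36.5 ± 1.64 CPM per kilobase and *Slc25a28* at 12.1 ± 1.81. Of the glutathione carriers, *Slc25a39* was at 50.7 ± 2.51 and *Slc25a40* at 8.65 ± 1.91. Of the calcium-regulated ATP-Mg/phosphate carriers, *Slc25a24* was at 50.9 ± 3.42, *Slc25a25* at 4.41 ± 0.292 and *Slc25a23* at 1.77 ± 0.372, and *Slc25a41* had 2 counts in all libraries. The NAD carrier *Slc25a51* was at 21.9 ± 5.51, and the carnitine/acylcarnitine carrier *Slc25a20*, which serves fatty acid oxidation, was at 2.86 ± 0.779.

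The members that failed the filter were *Slc25a2*, *Slc25a13*, *Slc25a18*, *Slc25a21*, *Slc25a31*, *Slc25a34*, *Slc25a41*, *Slc25a48* and *Slc25a54*, 9 in all. *Slc25a21* and *Slc25a54* had no count in any library, which allows up to 0.0418 to 0.0897 CPM per library (3 counts, counting error only). *Slc25a2*, *Slc25a18* and *Slc25a34* had 46, 41 and 17 counts over the 13 libraries, with at most 8, 13 and 4 in 1 library, and *Slc25a48* had 1. The highest count of *Slc25a18*, 13, was in YBX3 KD at 1 day replicate D, against 0 to 7 in the other libraries. Genes near *Slc25a13* on chromosome 6, *Dync1i1* and *Sem1*, had 7411 and 52851 counts. Whether the quantification missed reads of *Slc25a13* was not tested, so its count may not give its level. None of the 9 was tested for any change.

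The first comparison asked which transcripts differed in level in YBX3 KD, with both days pooled and the day as a term. *Slc25a36* and *Slc25a37* rose in YBX3 KD at an adjusted p under 0.05 by edgeR's quasi-likelihood test, and no member fell. These are 2 of 38 members tested (5.26%), against 2.34% of all genes tested. *Slc25a36* exports and imports pyrimidine nucleotides, and *Slc25a37* is mitoferrin-1, the iron importer best known from developing red cells. Members with an unadjusted p under 0.05 numbered 9 of 38, against 15.65% of all genes. With the study's thresholds (fold change over 1.3 and adjusted p under 0.001) put on the edgeR fit, no member was called, against 0.113% of all genes. The study used these thresholds with DESeq2 and another false discovery correction (independent hypothesis weighting), so this is not the outcome of its own rule. DESeq2 with an adjusted p under 0.05 called 3 members, *Slc25a12* lower and *Slc25a36* and *Slc25a37* higher, against 7% of all genes. DESeq2 with the block called 8 members, against 17.5% of all genes. In bulk RNA, fewer cells of a kind and less RNA per cell cannot be told apart.

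*Slc25a36* (chromosome 9, 96950238 to 96993267, minus strand, GRCm39, 7 exons) stood in control KD at 60.7, 60.6, 51.1 and 67.4 CPM at 0 day (A to D) and at 60.3 and 57.6 CPM at 1 day (C and D). In YBX3 KD it stood at 74.7, 68.2, 73.4 and 78.4 CPM at 0 day (A to D) and at 68.1, 80.0 and 82.9 CPM at 1 day (B to D). Every YBX3 KD library was above every control KD library, with a narrow gap between the lowest YBX3 KD library at 68.1 CPM and the highest control KD library at 67.4 CPM. It was the 1 member whose groups did not overlap, and 2.03% of all genes tested were so separated. The difference was 0.33 ± 0.07 on the log2 scale (SE), a 1.26-fold higher level, with an adjusted p of 0.0367 (edgeR). The call was lost without control KD 0 day A, B or C, control KD 1 day C or D, YBX3 KD 0 day A, C or D, or YBX3 KD 1 day C, with adjusted p from 0.0616 to 0.0976, while the log2 difference stayed between 0.29 and 0.37.

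*Slc25a37* (chromosome 14, 69479297 to 69522561, minus strand, 4 exons) stood in control KD at 156, 146, 148 and 160.2 CPM at 0 day and at 125 and 122 CPM at 1 day. In YBX3 KD it stood at 192, 159, 198 and 180.3 CPM at 0 day and at 166, 159 and 200.3 CPM at 1 day. The groups overlapped only at replicate D of control KD at 0 day, at 160.2 CPM, which lay above YBX3 KD 0 day B and YBX3 KD 1 day C. The difference was 0.35 ± 0.08 (log2, SE), a 1.27-fold higher level, with an adjusted p of 0.0352 (edgeR). The call was lost without control KD 0 day A, B or C, control KD 1 day C or D, YBX3 KD 0 day A, C or D, or YBX3 KD 1 day B or C, with adjusted p from 0.0516 to 0.0986. The other mitoferrin, *Slc25a28*, differed by -0.12 ± 0.12 (log2, adjusted p = 0.678, edgeR).

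**Figure D2:**
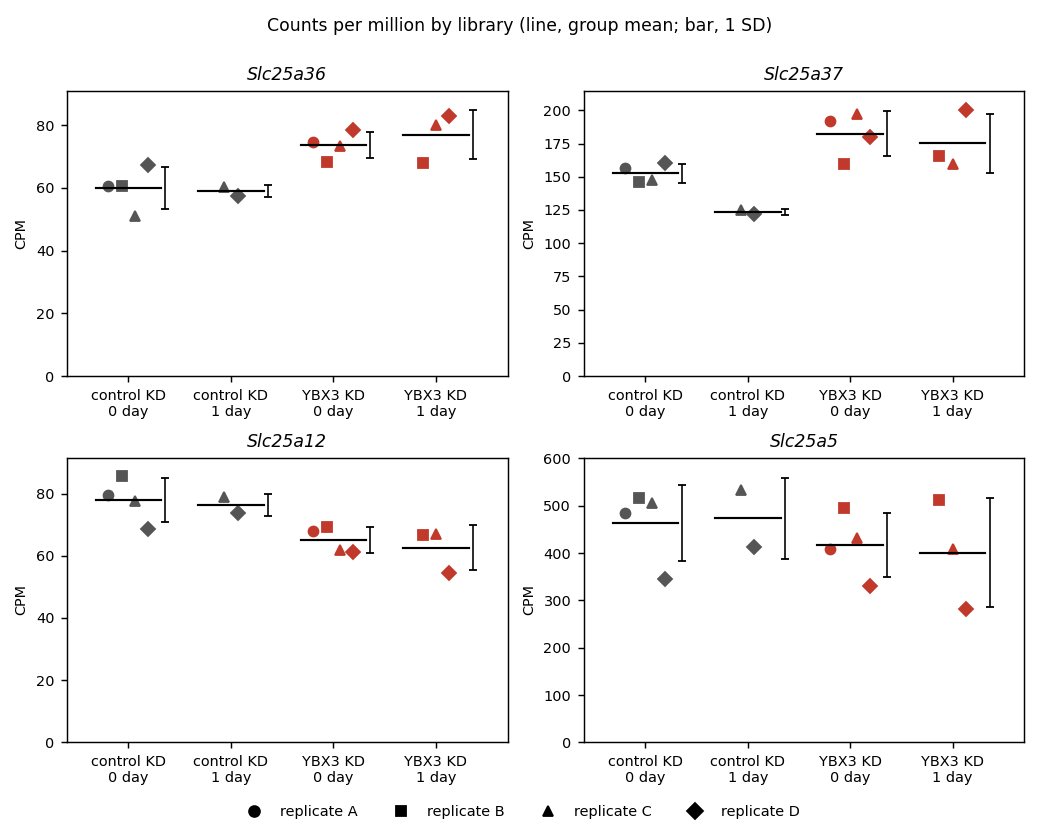
CPM of 4 SLC25 genes in each of the 13 libraries by group, with marker shapes for the replicate letter, lines for group means and bars for 1 SD. *Slc25a36* is higher in all YBX3 KD libraries (68.1 CPM and above) than in control KD (67.4 CPM and below), and the replicate D library of each group is the lowest in *Slc25a5*.

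Libraries of the same letter deviated together, so the comparison was also made with the letter as a block. In that fit 4 members passed, *Slc25a36* and *Slc25a37* higher and *Slc25a12* and *Slc25a5* lower, against 9.78% of all genes. *Slc25a36* differed by 0.34 ± 0.07 (log2, SE) with an adjusted p of 0.0153 and *Slc25a37* by 0.36 ± 0.07 with an adjusted p of 0.0181 (edgeR with the block). Across the 6 pairs of a YBX3 KD and a control KD library of the same letter and day, 10 of 38 members had the same sign in every pair, 4 higher and 6 lower, against 17.3% of all genes. The 4 higher were *Slc25a36*, *Slc25a37*, *Slc25a42* and *Slc25a45*, and the 6 lower were *Slc25a3*, *Slc25a4*, *Slc25a5*, *Slc25a11*, *Slc25a12* and *Slc25a17*, named here after their values were seen. *Slc25a42*, a carrier of coenzyme A, and *Slc25a45* had adjusted p of 0.0921 and 0.0659 with the block.

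**Figure D3:**
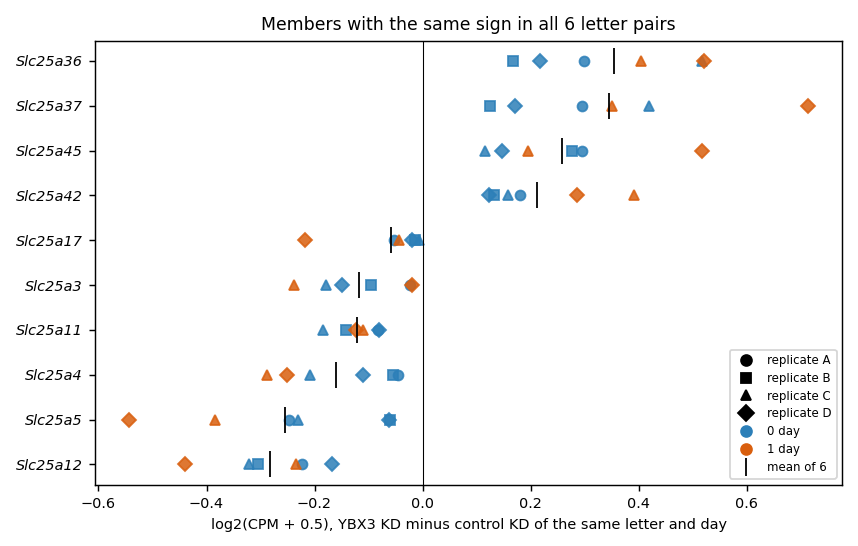
Difference between YBX3 KD and control KD in log2(CPM + 0.5) for each of the 6 pairs of libraries that share a letter and a day, for the 10 SLC25 genes with the same sign in every pair, with shapes for the letter, colors for the day and a bar for the mean. *Slc25a12* lies between -0.17 and -0.44 in its 6 pairs and *Slc25a36* between 0.17 and 0.52.

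*Slc25a12* (chromosome 2, 71101407 to 71198167, minus strand, 18 exons), the aspartate/glutamate carrier of muscle and brain, stood in control KD at 79.5, 85.7, 77.5 and 68.8 CPM at 0 day and at 78.9 and 73.9 CPM at 1 day. In YBX3 KD it stood at 68.0, 69.3, 61.9 and 61.1 CPM at 0 day and at 66.6, 67.0 and 54.3 CPM at 1 day. Only control KD 0 day D, at 68.8 CPM, lay below the highest YBX3 KD library, 0 day B at 69.3 CPM. The difference was -0.27 ± 0.07 (log2, SE) with an adjusted p of 0.0707, and with the block it fell by 0.29 with an adjusted p of 0.00739 (edgeR). Without control KD 0 day D the adjusted p was 0.0252, and without all 4 libraries of letter D it was 0.00946.

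*Slc25a5* (chromosome X, 36059223 to 36062462, plus strand, 4 exons), the ADP/ATP carrier of proliferating cells, stood in control KD at 485, 517, 506 and 346 CPM at 0 day and at 534 and 412 CPM at 1 day. In YBX3 KD it stood at 408, 496, 431 and 331 CPM at 0 day and at 511, 409 and 283 CPM at 1 day. The groups overlapped widely, and the D library was the lowest of each group. The difference was -0.19 ± 0.15 (log2, SE; adjusted p = 0.592) without the block, and it fell by 0.24 with the block (adjusted p = 0.0433, edgeR). Without the 4 libraries of letter D it was -0.18 with an adjusted p of 0.161. Of the reference transcript's 31-base windows, 62.8% occurred in other genes, mostly processed pseudogenes, but the 13 of those genes in the table had 1169 counts in all, against 273487 for *Slc25a5*. *Slc25a36* shared 13.6% of its windows with 1 pseudogene that had 50 counts. *Slc25a37* shared 9.07% of its windows with any other gene and 8.49% with the predicted gene *Gm16867*. All 12 of its sharing genes in the table had 83221 counts together, against 98897 for *Slc25a37*. Reads in the shared stretches could have been split, but the count of *Gm16867* alone is not given here.

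Without the libraries of letter D, 4 members were called, *Slc25a36* (0.32, adjusted p = 0.017) and *Slc25a37* (0.32, adjusted p = 0.0141) higher and *Slc25a10* (-0.35, adjusted p = 0.00541) and *Slc25a12* lower, against 12.9% of all genes. *Slc25a10*, the dicarboxylate carrier, stood at 53.6 to 96.1 CPM in control KD, median 86.7, and at 45.7 to 72.4 CPM in YBX3 KD, median 68.1. Its difference was -0.32 ± 0.14 (log2, SE; adjusted p = 0.268, edgeR) over all libraries. The lowest control KD library was 0 day D at 53.6 CPM, and the others were at 81.7 CPM or above, over every YBX3 KD library.

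By role, the differences in YBX3 KD were of both signs and small. Across the 38 tested members the median log2 difference was -0.0049, against 0.000803 over all genes, with a range from -0.32 to 0.35. Of the 6 tested adenine nucleotide and phosphate carriers, 4 were lower and 2 higher, with a median of -0.088 and no call. The ADP/ATP carrier *Slc25a4* differed by -0.13 ± 0.07 (adjusted p = 0.361), the phosphate carrier *Slc25a3* by -0.07 ± 0.07 (adjusted p = 0.668) and *Slc25a24* by 0.13 ± 0.06 (adjusted p = 0.29), all by edgeR. With the block *Slc25a5* of this group was called.

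Of the 6 tested carriers of aspartate, glutamate and other amino acids, 3 were lower and 3 higher, with a median of -0.025 and no call, and with the block *Slc25a12* was called lower. *Slc25a44*, a carrier of branched-chain amino acids, stood at 46.9 to 50.02 CPM in control KD, median 48.2, and at 49.0 to 60.4 CPM in YBX3 KD, median 53.2. It differed by 0.14 ± 0.06 (log2, adjusted p = 0.222, edgeR), with 2 control KD libraries above the lowest YBX3 KD library. *Slc25a38*, which brings glycine in for heme synthesis, differed by -0.15 ± 0.11 (adjusted p = 0.565).

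The 4 tested carboxylate and acylcarnitine carriers had a median of -0.076, with 3 lower and 1 higher and no call. *Slc25a11* stood at 84.0 to 97.8 CPM in control KD and at 74.7 to 91.6 CPM in YBX3 KD, with a difference of -0.14 ± 0.07 (adjusted p = 0.333, edgeR). *Slc25a20* differed by 0.05 ± 0.14 (adjusted p = 0.897), and it was -0.0074 without control KD 0 day A and -0.0199 without control KD 0 day C.

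The 9 tested carriers of cofactors, nucleotides and vitamins had a median of 0.11, with 5 higher and 4 lower and 1 call, *Slc25a36*. The other pyrimidine nucleotide carrier, *Slc25a33*, differed by -0.18 ± 0.18 (adjusted p = 0.682, edgeR), and *Slc25a51* by -0.10 ± 0.13 (adjusted p = 0.767), or 0.0303 without control KD 0 day D. The 4 iron and glutathione carriers split evenly in sign, and *Slc25a37* was called, while *Slc25a39* differed by -0.09 ± 0.07 (adjusted p = 0.555) and *Slc25a40* by 0.16 ± 0.14 (adjusted p = 0.629). *Slc25a46*, of the outer membrane, differed by -0.0018 ± 0.048 (adjusted p = 0.991). The 3 uncoupling protein-like members ranged from -0.083 to 0.18 and the 5 of less established substrate from -0.027 to 0.25, with no call.

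**Figure D4:**
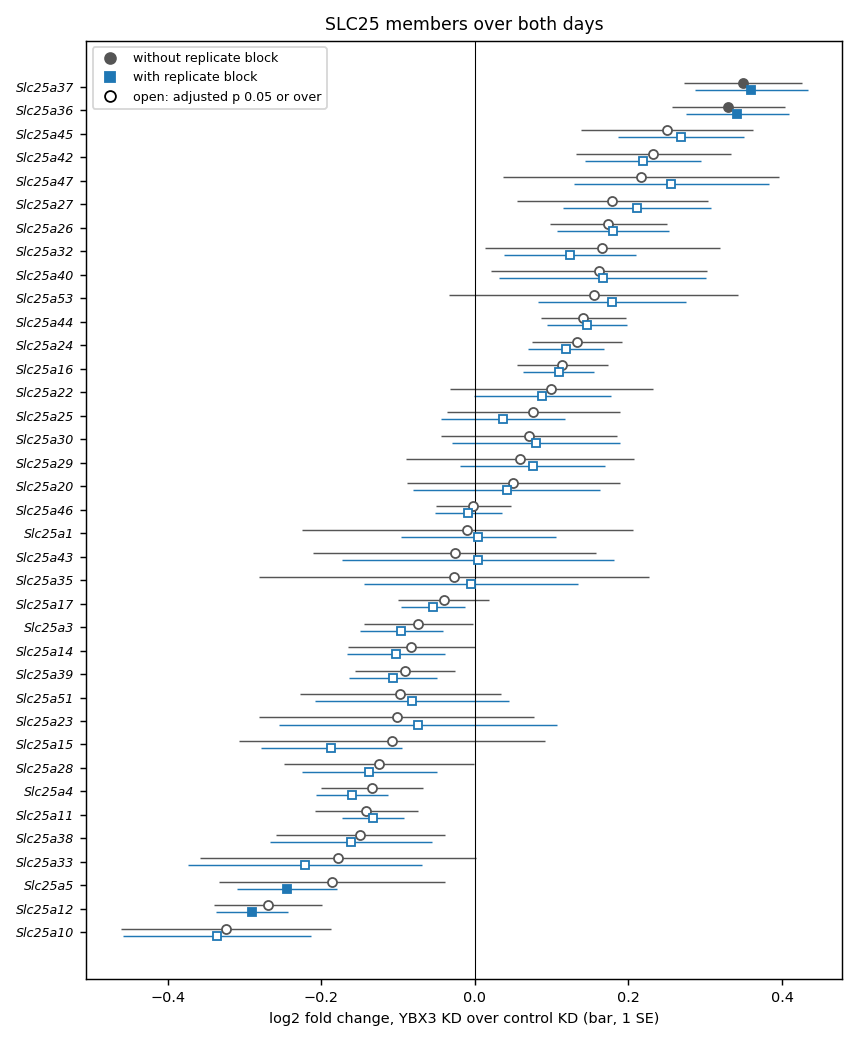
Log2 fold change in YBX3 KD over control KD for tested SLC25 genes over both days, without (circles) and with (squares) the replicate letter as a block, with bars of 1 SE and filled symbols for an adjusted p under 0.05. *Slc25a36* and *Slc25a37* are filled in both fits, at 0.33 and 0.35 without the block, and *Slc25a5* and *Slc25a12* only with the block.

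Within 0 day, edgeR called no member, against 0.427% of all genes, and 6 of 38 members had an unadjusted p under 0.05, against 11.05% of all genes. DESeq2 also called none, against 3% of all genes, and DESeq2 with the block called 4, against 7.91% of all genes. The smallest p in each direction belonged to *Slc25a36* (0.30 ± 0.10, adjusted p = 0.245), *Slc25a37* (0.26 ± 0.09, adjusted p = 0.294) and *Slc25a24* (0.18 ± 0.07, adjusted p = 0.405) among the higher, and to *Slc25a12* (-0.26 ± 0.09, adjusted p = 0.309), *Slc25a23* (-0.41 ± 0.18, adjusted p = 0.421) and *Slc25a39* (-0.17 ± 0.08, adjusted p = 0.44) among the lower. *Slc25a39* at 0 day stood at 141 to 158 CPM in control KD and at 122 to 138 CPM in YBX3 KD, with no overlap at this day. At 0 day 3 of 38 members, *Slc25a23*, *Slc25a36* and *Slc25a39*, did not overlap, against 9.1% of all genes. *Slc25a24* stood at 174, 200.3, 178 and 176 CPM in control KD at 0 day and at 202, 214, 207 and 199.95 CPM in YBX3 KD, overlapping at control KD replicate B. Without the libraries of letter D, *Slc25a10* and *Slc25a12* were called lower at 0 day, 2 members, against 5.78% of all genes.

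Within 1 day, where control KD had 2 libraries, edgeR called no member, against 0.0712% of all genes, and 6 of 38 members had an unadjusted p under 0.05, against 7.787% of all genes. DESeq2 called 1 member, *Slc25a37* higher, against 0.902% of all genes, and with the block it called 7, against 13.9% of all genes. The libraries did not overlap in 11 of 38 members at 1 day, against 19.9% of all genes. The edgeR difference of *Slc25a37* at 1 day was 0.50 ± 0.12 (log2, SE; adjusted p = 0.363), that of *Slc25a36* was 0.38 ± 0.12 (adjusted p = 0.495) and that of *Slc25a40* was 0.54 ± 0.19 (adjusted p = 0.562). *Slc25a40* stood at 24.4 and 20.7 CPM in control KD at 1 day and at 29.98, 29.6 and 38.96 CPM in YBX3 KD. Among the lower, *Slc25a10* differed by -0.53 ± 0.22 (adjusted p = 0.603), *Slc25a12* by -0.29 ± 0.12 (adjusted p = 0.606) and *Slc25a38* by -0.36 ± 0.17 (adjusted p = 0.658). Without the libraries of letter D the 1 day difference was 0.30 for *Slc25a40*, 0.39 for *Slc25a37*, 0.31 for *Slc25a36*, -0.39 for *Slc25a10*, -0.23 for *Slc25a12* and -0.25 for *Slc25a38*. The YBX3 KD replicate D library was the highest in *Slc25a40* and the lowest in *Slc25a10* and *Slc25a38*.

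Whether the effect of YBX3 KD differed between the days was tested as an interaction. By edgeR no member passed, as no gene did (0% of 16848). DESeq2 called no member, against 0.0119% of all genes, and 3 of 38 members had an unadjusted p under 0.05 by edgeR, against 2.635% of all genes. These were *Slc25a23* (0.84 ± 0.29 on the log2 scale, 1 day minus 0 day), *Slc25a40* (0.60 ± 0.24) and *Slc25a30* (0.46 ± 0.20), each with an adjusted p of 1. Without the libraries of letter D they were 0.40, 0.23 and 0.13, and the D libraries of control KD at 0 day and YBX3 KD at 1 day were the highest of their groups in *Slc25a30*. *Slc25a30*, an uncoupling protein-like carrier, stood at 71.5 and 64.9 CPM in control KD and at 78.0, 79.7 and 105 CPM in YBX3 KD at 1 day, and at 62.8 to 86.9 CPM and 61.6 to 67.8 CPM at 0 day. Among the members with a negative difference, the smallest p belonged to *Slc25a38* (-0.34 ± 0.22) and *Slc25a10* (-0.33 ± 0.28), which were -0.13 and -0.049 without the libraries of letter D.

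From 0 day to 1 day, with the siRNA as a term, edgeR called no member and no gene (0% of 16848). DESeq2 called no member, against 0.0119% of all genes, and 3 of 38 members had an unadjusted p under 0.05 by edgeR, against 2.831% of all genes. These were *Slc25a42* (-0.30 ± 0.10), *Slc25a46* (0.11 ± 0.05) and *Slc25a51* (0.29 ± 0.13), all with an adjusted p of 1. No member's libraries were separated between the days, against 0.0594% of all genes. *Slc25a51* stood at 75.3 to 134 CPM in the 8 libraries of 0 day, median 83.9, and at 89.3 to 130 CPM in the 5 of 1 day, median 105. The library at 134 CPM was control KD 0 day D, and without the libraries of letter D *Slc25a51* was called higher at 1 day (0.40, adjusted p = 0.00391), 1 member, against 0.979% of all genes. In the control KD libraries alone *Slc25a51* differed by 0.061 (adjusted p = 1). *Slc25a30* differed by 0.23 ± 0.12 (-0.0358 in the control KD libraries alone), *Slc25a37* by -0.17 ± 0.08 and *Slc25a38* by -0.20 ± 0.11 (-0.02 in the control KD libraries alone), all with an adjusted p of 1.

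Other genes of mitochondrial transport and metabolism were read from the same fits. Over 70 tested genes of 6 lists, edgeR called none over both days, against 2.34% of all genes, and 19 had an unadjusted p under 0.05, against 15.65% of all genes. DESeq2 called 10 lower and none higher, against 7% of all genes in either direction. Of the 70 genes, 63 were lower and 7 higher, with a median log2 difference of -0.13 against 0.000803 over all genes. All 18 tested genes of the tricarboxylic acid cycle were lower (median -0.16), as were 22 of 24 genes of other mitochondrial membrane transport (median -0.13), 9 of 10 of carrier import and insertion (median -0.11), 5 of 6 shuttle enzymes (median -0.16), 8 of 11 biogenesis factors (median -0.12) and all 3 tested carriers with other names (median -0.10). The SLC25 family had 20 lower and 18 higher, with a median of -0.0049, and the difference between the family and these lists was not tested. With the block, edgeR called lower 8 genes of the tricarboxylic acid cycle, 5 of other membrane transport, 2 shuttle enzymes, 2 of carrier import and 2 of biogenesis, and called none higher, against 9.78% of all genes in either direction, with *Cs* counted in both the cycle and the biogenesis list. The genes that follow were named after their values were seen, and their values are from edgeR with the block. *Idh2*, *Fh1* and *Vdac3* had the smallest adjusted p of the 6 lists (0.00363, 0.00882 and 0.0116) and fell by 0.43, 0.31 and 0.24. Of the malate-aspartate shuttle enzymes, *Got2* and *Mdh1* fell by 0.19 and 0.18 (adjusted p = 0.0403 and 0.0357). *Got1* and *Mdh2* of the same shuttle were not called, at -0.0054 and -0.20 (adjusted p = 0.975 and 0.0667). *Agk*, a subunit of the TIM22 complex, fell by 0.29 (adjusted p = 0.0265).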

How the data were processed

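RNA of 13 C2C12 libraries was sequenced from the Illumina Stranded mRNA Prep kit, per the labels (the study's methods also name a TruSeq kit, so whether strand was kept is uncertain). Per the study's methods the authors quantified reads with Salmon (version not given in the sources used here) against GRCm39 and a GENCODE canonical list, and deposited estimated counts per Ensembl gene. How transcripts were summed to genes, and the strand setting, are not given in the sources used here. The deposited estimated counts were rounded to whole numbers. Symbols, lengths, exons and 3′ UTRs came from the GENCODE annotation of GRCm39, matched to 54969 of 55642 rows. R 4.3.3 with edgeR 4.0.16 (filterByExpr, TMM factors, glmQLFit and glmQLFTest, Benjamini-Hochberg over all 16848 genes tested) gave the tests. CPM used TMM-scaled totals, and SE is the log2 fold change divided by the square root of F. DESeq2 1.42.0, other filters and factors, the replicate block and leaving out libraries were alternatives. DESeq2 with the block and the study's thresholds with the block were chosen after seeing the data. Across groups, deviations of same-letter libraries correlated at 0.207 to 0.843 (16 of 16 pairs over 0.1). Those of different letters correlated at -0.722 to 0.537 (13 of 46 pairs over 0.1). The letters, taken from the sample descriptions, were therefore used to pair the libraries. The part of the D libraries, which stood apart, in these correlations was not tested. The replicate numbers in the titles differ from the letters in the 1 day groups, and same-number libraries passed 0.1 in 10 of 16 pairs. No library was a duplicate of another in its group, and pairs across groups were not checked for this. Scripts were tested on simulated data. Guides were the study's listed siRNAs. No protein sequence was used here.

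The members, lists and tests were chosen with earlier results of these data known. Named members are those called, the 3 with the smallest p in each direction of each comparison, the 6 highest per length, a preset list of ADP/ATP, phosphate, aspartate/glutamate, iron, glutathione, NAD and acylcarnitine carriers, those that failed the filter, and *Ybx3*. *Slc25a52* of that list had no row. The values of 1 tested member are not reported here, though counts and medians include it. The depth of 33451547 to 71811371 counts limits members with few counts, and intervals cover counting error only.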

Additional observations from a re-analysis of the deposited data

Results flagged for a closer look

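In 3 of 44 sets of 4 libraries (a named gene in a group at 0 day), 1 library lay farther from the rest than Dixon's 95% critical value for the gap over the range, where chance gives about 1 in 20. *Slc25a24* was at 200.3 CPM in control KD 0 day replicate B, against 174 to 178 CPM in the other 3 libraries. *Slc25a30* was at 86.9 CPM in control KD 0 day replicate D, against 62.8 to 65.6 CPM. *Slc25a51* was at 134 CPM in control KD 0 day replicate D, against 82.8 to 87.8 CPM. Both of the latter are in a library that also stood apart over all genes, and the part of that library's quality in the values was not tested.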

How the results depend on the processing

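The 2 calls over both days (2.34% of all genes) became 4 with the replicate block (9.78%) and 4 without the 4 libraries of letter D (12.9%). They became 8 with DESeq2 and the block (17.5%) and 0 with the study's thresholds on the edgeR fit (0.113%). With those thresholds and the block there were also 0 calls. There was 1 call without the day term and 0 without the filter on low counts. Leaving out single libraries gave 0 to 4. For the study's thresholds with the block, no day term, no filter and single libraries left out, the shares of all genes are not given here. Without those shares, the counts cannot be compared with all genes. At 0 day the count of 0 became 4 with DESeq2 and the block (7.91% of all genes) and 2 without letter D. At 1 day it became 1 with DESeq2 and 7 with DESeq2 and the block (13.9% of all genes). From 0 day to 1 day it became 1 without letter D. Leaving out single libraries left 0 at 0 day, at 1 day, for the interaction and for the day. DESeq2 alone, RLE factors and a minimum of 10 counts kept the count over both days within 1.5 times. The replicate block alone changed no call within a day, in the interaction or between the days, but it moved the unadjusted p-values (edgeR). With it, members with an unadjusted p under 0.05 went from 6 to 10 at 0 day (20.67% of all genes with the block). They went from 6 to 15 at 1 day (27.11%), from 3 to 6 in the interaction (11.03%) and from 3 to 1 between the days (4.742%). Signs turned for *Slc25a20* over both days (-0.0074 without control KD 0 day A and -0.0199 without control KD 0 day C, the range over single libraries being -0.0199 to 0.134), for *Slc25a51* (0.0303 without control KD 0 day D, range -0.182 to 0.0303) and for *Slc25a30* between the days (-0.0358 in control KD libraries alone). The cause of these shifts was not tested. Depth limits the 9 untested members.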

Other observations

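Some members lie beside each other in the genome and differed in level. *Slc25a5* and *Slc25a43* lie 17955 bases apart on chromosome X, on the same strand, at 350.4 and 0.675 CPM per kilobase in control KD at 0 day. *Slc25a24* and *Slc25a54* lie 6312 bases apart on chromosome 3, with 121120 and 0 counts over the 13 libraries. *Slc25a23* and *Slc25a41* lie 2050 bases apart on chromosome 17, with 3296 and 2 counts. *Slc25a29*, a carrier of basic amino acids, and *Slc25a47* overlap by 230 bases on opposite strands of chromosome 12, with 4022 and 842 counts, and the strand setting of the counting is not given in the sources used here.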
